A study of Mus musculus with 17 samples.

Results

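The proteasome genes were followed in single mouse 2-cell embryos of sires treated with PJ34, set against embryos of control sires. Members were the array rows with exactly 1 gene symbol that begins with Psma, Psmb, Psmc, Psmd, Psme, Psmf or Psmg and goes on with a digit. The choice used symbols only and no measured value. It found 56 of 21780 rows with 1 symbol, or 50 of 19935 genes. By role, 54 rows of 48 genes were subunits, activators, an inhibitor or assembly chaperones. The other 2 rows met the rule by name only: Psmc3ip, which encodes a meiotic recombination factor, and Psme3ip1, which encodes a protein that binds the Psme3 activator. Psma3 had 3 rows, and Psma5, Psmb3, Psmc1 and Psmd2 had 2 rows each. No row was removed for low values, so all 56 were tested. A row shared by Psme2 and the copy Psme2b was no member, and its mean log2 value was 5.52 ± 0.22 in PJ34 embryos and 5.45 ± 0.26 in Control embryos (SD, n = 10 and 7).

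PJ34 inhibits the poly(ADP-ribose) polymerases, which take part in the exchange of histones for protamines in spermatids. The study asked whether embryos of sires with altered sperm chromatin express genes differently. The PJ34 group held 10 embryos of 3 sires given PJ34 by daily injection for 6 weeks, with 4 embryos of sire MTM11, 4 of MTM13 and 2 of MTM14. The Control group held 7 embryos of 3 saline-injected sires, with 1 embryo of sire A, 3 of sire B and 3 of sire D. All sires and the untreated dams were wild-type mice of strain 129SVE (129S6/SvEvTac), so no allele differed by design. Embryos came from natural mating, each array held the amplified RNA of 1 embryo, and age was the 2-cell stage. For the Control sires, one label field gives saline and another says untreated, and a supplement of the study lists longer treatment of some males. Embryos of 1 sire share that sire, and the p-values below measure the spread between embryos and not between sires.

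Embryos are named by sire and number, as in MTM11-3 or B-2. All levels are log2 values after RMA, the probe-set summary that the authors deposited, and levels of different rows cannot be set against each other. Array medians ran between 6.12 and 6.23. Marker lists were compared between groups only, since a level shows no presence or absence here. The mean over 14 rows of 2-cell genome activation markers was 8.68 ± 0.38 in PJ34 embryos and 8.66 ± 0.23 in Control embryos (SD). Over 20 rows of oocyte-stored markers it was 9.76 ± 0.07 in PJ34 embryos and 9.80 ± 0.12 in Control embryos. Over 14 rows of cumulus cell markers it lay between 5.43 and 5.62 in either group, over 14 rows of oviduct and blood markers between 5.62 and 5.80 in PJ34 embryos and between 5.57 and 5.85 in Control embryos, and over 12 rows of sperm and testis markers between 5.98 and 6.18 in PJ34 embryos and between 5.93 and 6.13 in Control embryos. On arrays of whole embryos, fewer cells of a type and less RNA per cell cannot be told apart.

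The proteasome degrades proteins tagged with ubiquitin. Its barrel-shaped core has outer rings of alpha subunits (Psma) that gate entry and inner rings of beta subunits (Psmb) that hold the cutting sites. A regulatory particle caps the core: its base carries a ring of ATPases (Psmc) that unfold the substrate, and its lid (Psmd) removes ubiquitin. Activators of the Psme class can take the place of the regulatory particle, and dedicated chaperones (Psmg, and some Psmd) assist assembly. In the mouse embryo, stored maternal proteins and RNAs are cleared around the 2-cell stage, when the embryo's own genome is switched on.

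Over all member rows, PJ34 embryos had slightly lower values than Control embryos, with a median log2 difference of -0.11 (PJ34 minus Control). The median over all 21780 rows was -0.02. The difference was negative in 35 of 56 member rows (62.5%), against 56.4% of all rows. No member row passed an adjusted p of 0.1 in limma, where the share over all rows was 0%, and the lowest adjusted p of a member was 0.843. At an unadjusted limma p under 0.05, 5 member rows (8.93%) were lower in PJ34 embryos, where 3.93% of all rows were. At the same level 1 member row (1.79%) was higher in PJ34 embryos, where 1.96% of all rows were. In no member row were the groups free of overlap, which was so for 0.0138% of all rows. With the mean of each sire as 1 value (3 against 3), the counts were 5 lower and 0 higher. Psme4 then stood at p = 0.0510 and Psmc3 at p = 0.0904 (limma, unadjusted). The 5 lower rows were therefore not the same 5, as Psmc3 was no longer among them. Shares over all rows are not given for the sire means, so these counts cannot be set against the table as a whole. The median SE of a difference was 0.092 over all rows, while it was 0.39 for the first row of Psma5 and 0.33 for Psmg1.

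**Figure D1:**
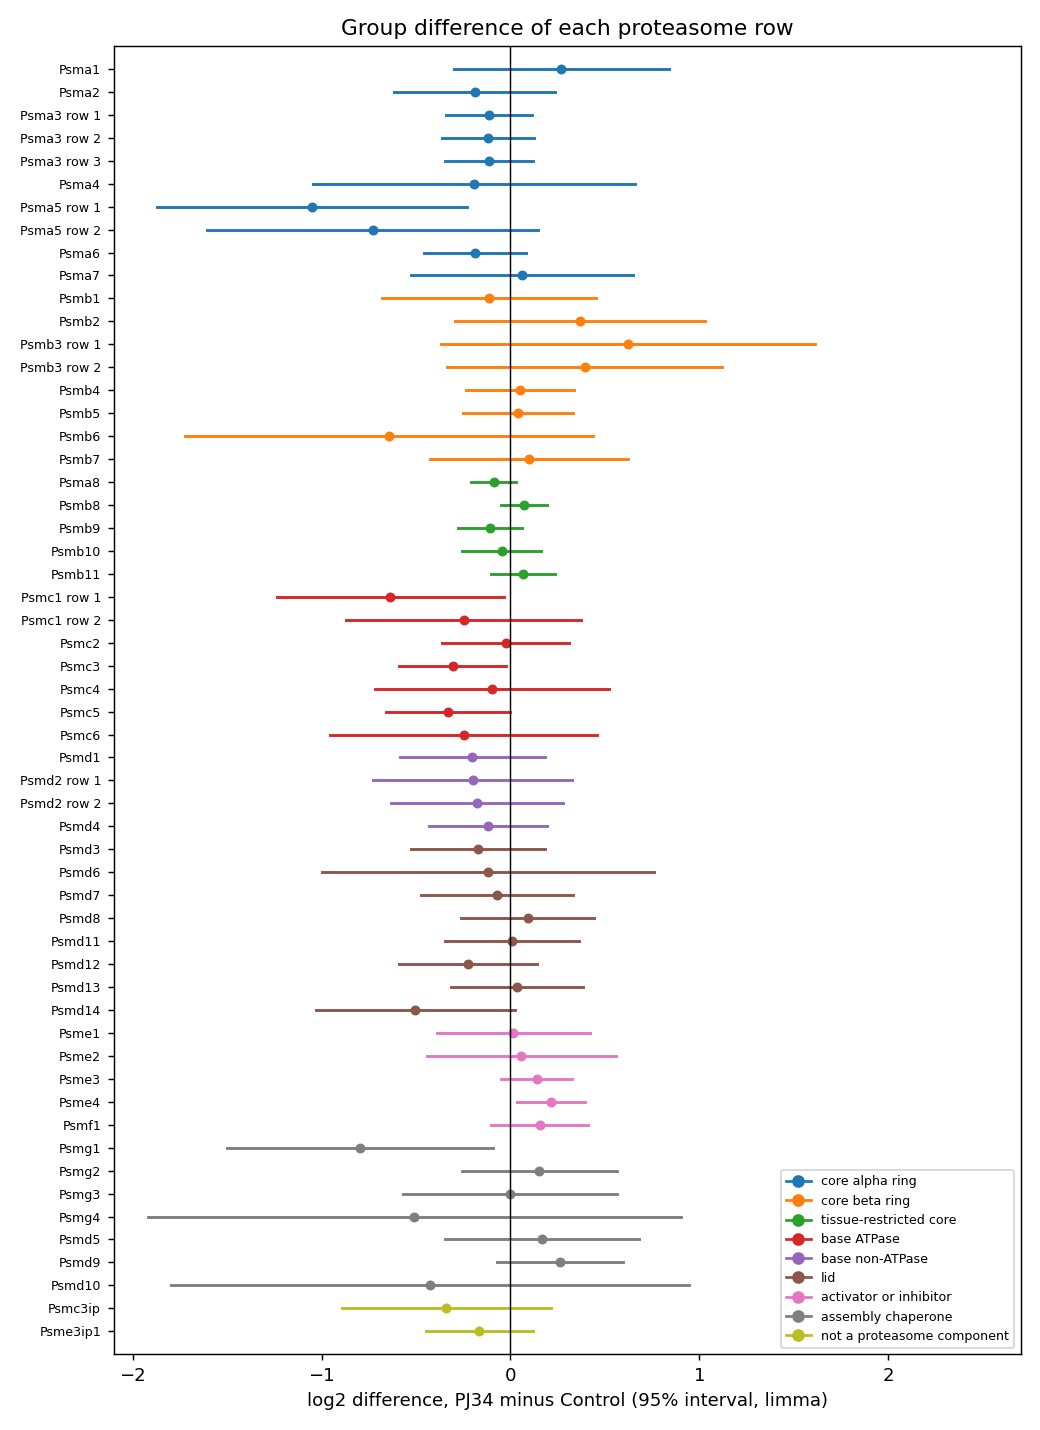
Difference in log2 value, PJ34 minus Control, for each of the 56 proteasome rows (points) with its 95% interval from limma (lines), coloured by role. All 7 rows of base ATPases lie below 0 and all 5 rows of activators and the inhibitor lie above 0, and most intervals include 0. Over all 21780 rows, 56.4% had a difference below 0.

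The mean over the 56 rows was 8.49, 8.64, 9.06 and 8.54 in the MTM11 embryos 1 to 4. It was 8.60, 8.44, 8.60 and 8.56 in the MTM13 embryos and 8.71 and 8.61 in the MTM14 embryos. In Control embryos it was 8.82 in A-2, 8.71, 8.69 and 8.70 in the B embryos 1 to 3, and 8.78, 8.71 and 8.76 in the D embryos. Thus 8 of 10 PJ34 embryos lay below the lowest Control embryo, MTM14-1 lay among the Control embryos, and MTM11-3 lay above all of them. The group means were 8.63 ± 0.17 in PJ34 embryos and 8.74 ± 0.05 in Control embryos (SD, n = 10 and 7), a difference of -0.11. Without MTM11-3 the difference was -0.16 and the SD of the PJ34 embryos was 0.081. Without the 2 rows of Psma5 it was -0.08, and 7 PJ34 embryos lay below the lowest Control embryo.

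MTM11-3 lay above the highest Control embryo in the means of the alpha ring, beta ring, base ATPases and lid, and in no other role. Its mean was slightly below the Control mean in the other base subunits (8.85 against 8.89) and in the core subunits found mainly in certain tissues (6.08 against 6.09). It exceeded the Control mean in 42 of 56 rows (75.0%), while 38.8% of all rows on its array did so, and it exceeded the highest Control embryo in 17 rows, a level that 9.17% of all rows reached. The other PJ34 embryos exceeded the Control mean in 17 to 25 member rows (30.4% to 44.6%), while 36.2% to 57.7% of all rows on their arrays did so. Their member share was above the share of all rows in MTM13-1 (42.9% against 36.3%) and MTM14-1 (44.6% against 37.9%), and below it in the rest. The Control embryos exceeded the Control mean in 24 to 31 member rows (42.9% to 55.4%), where 33.7% to 57.1% of all rows did. Among the rows that were highest in MTM11-3 were the core subunits Psmb2, at 10.25 against a Control mean of 8.94, and Psmb1, at 10.62 against 9.53. The lid subunit Psmd8 stood at 10.28 in this embryo, against a Control mean of 9.28. In contrast, Psmg1, at 5.95, and Psme2, at 6.65, were lower in MTM11-3 than in any other embryo. Its array median was 6.15, within the range of the other arrays.

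**Figure D2:**
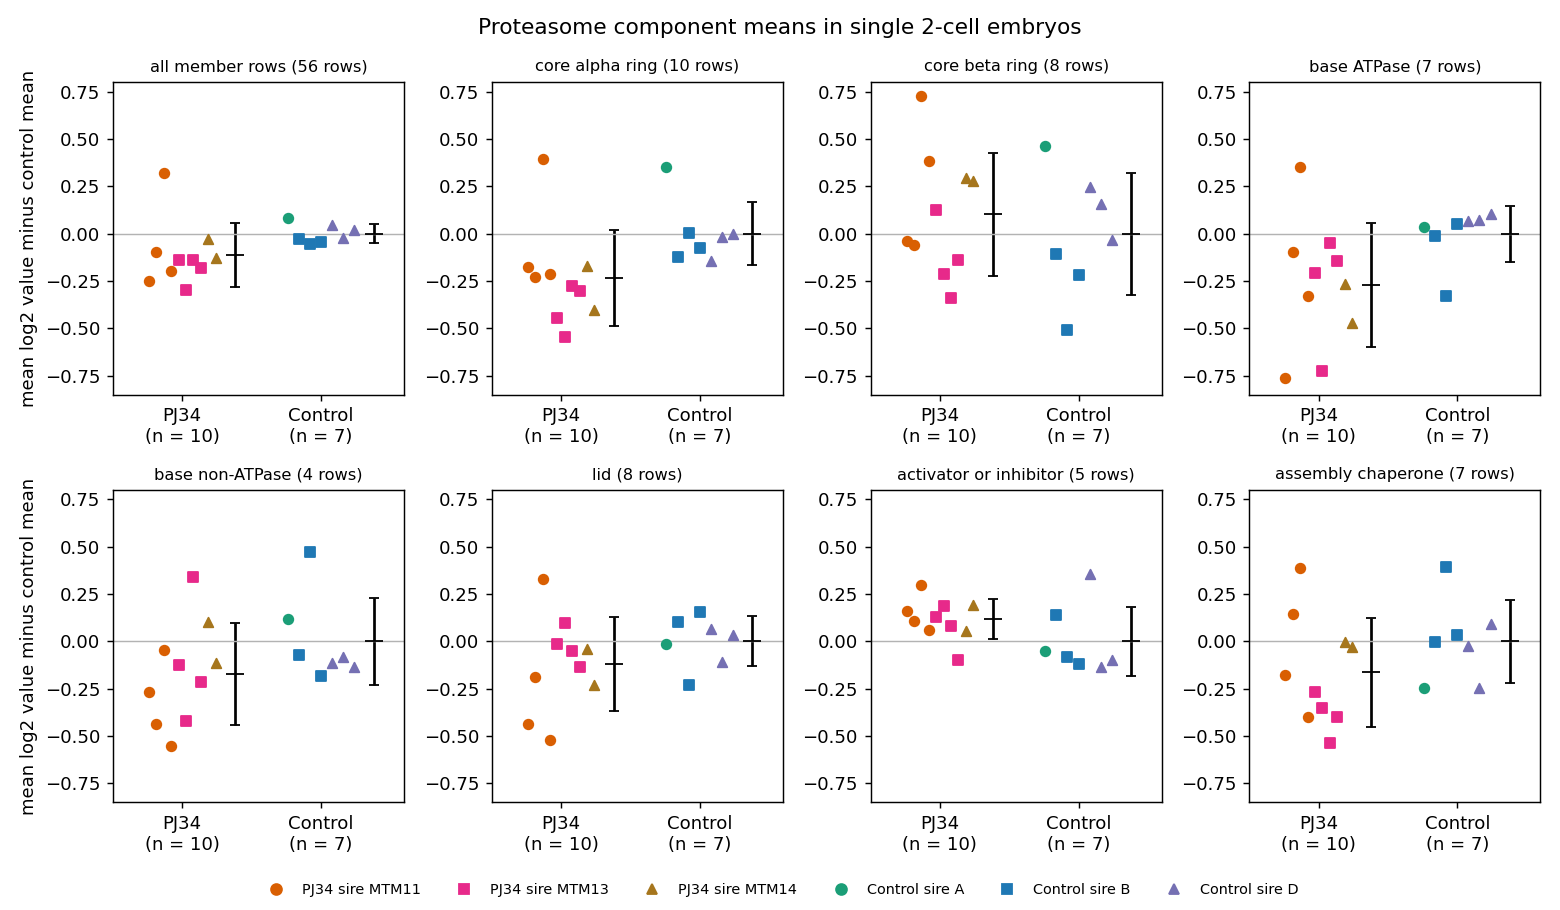
Mean log2 value over the rows of each role in every embryo, as the difference from the mean of the 7 Control embryos; colours and shapes mark sires, and the black bars are the group mean ± SD. In the panel of all 56 rows, 8 PJ34 embryos lie below the lowest Control embryo and MTM11-3 lies above the highest.

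The alpha ring of the core had a lower mean in most PJ34 embryos, and most of that difference came from the 2 rows of Psma5. The 10 rows averaged 9.92 ± 0.25 in PJ34 embryos and 10.15 ± 0.17 in Control embryos (SD, n = 10 and 7). In 9 of 10 PJ34 embryos this mean was below the lowest Control embryo, at 10.01, while MTM11-3 reached 10.55 and exceeded the highest Control embryo, A-2, at 10.51. Without Psma5, the other 8 rows averaged 10.60 ± 0.26 in PJ34 embryos and 10.67 ± 0.09 in Control embryos, a difference of -0.07 in place of -0.24. Only 3 PJ34 embryos (MTM13-1, MTM13-4 and MTM14-2) then lay below the lowest Control embryo, at 10.52. The difference was negative in 8 of 10 rows (80%), against 56.4% of all rows, with a median of -0.15. At an unadjusted p under 0.05, 1 row (10%) was lower, where 3.93% of all rows were.

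That row was the first of Psma5, which encodes an alpha subunit. Rows have no coordinates here, so whether each Psma5 row reads the gene's own locus was not checked. It read 7.24, 7.74, 9.97 and 8.49 in the MTM11 embryos, 8.57, 7.13, 9.34 and 8.86 in the MTM13 embryos, and 8.68 and 9.73 in the MTM14 embryos. In Control embryos it read 10.59 in A-2, 9.09, 9.74 and 9.89 in the B embryos, and 8.84, 9.62 and 9.59 in the D embryos. The groups overlapped, but 6 PJ34 embryos lay below the lowest Control embryo, and the lowest values were those of MTM13-2, MTM11-1 and MTM11-2. The mean was 8.57 ± 0.97 in PJ34 embryos and 9.62 ± 0.56 in Control embryos, a log2 difference of -1.05 with a 95% interval from -1.87 to -0.23 (2.07-fold lower; limma, unadjusted p = 0.0153, adjusted p = 0.843).

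The second Psma5 row averaged 5.81 ± 0.93 in PJ34 embryos, below the lowest array median of 6.12, and 6.54 ± 0.82 in Control embryos. Its difference was -0.73 with an interval from -1.61 to 0.15 (limma, unadjusted p = 0.0976, adjusted p = 0.871). Across the 17 embryos, which are the same RNA for both rows, the 2 rows of Psma5 had a correlation of 0.81. The 3 rows of Psma3, another alpha subunit, moved almost as 1, with correlations of 0.976 to 0.997.

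Psma4 had the widest range of the alpha rows within PJ34 embryos. It ran between 7.71 and 11.37 in PJ34 embryos (median 10.25) and between 9.66 and 10.84 in Control embryos (median 10.21), so that PJ34 embryos lay on both sides. Its means, 10.04 ± 1.08 in PJ34 embryos and 10.23 ± 0.36 in Control embryos, differed by -0.19 with an interval from -1.05 to 0.66. Without MTM14-2, the lowest embryo, the difference was 0.07. Psma1 was the alpha row with the largest positive difference, with 9.40 ± 0.46 in PJ34 embryos and 9.13 ± 0.71 in Control embryos (0.27, interval from -0.30 to 0.84). That difference was 0.04 without Control embryo B-3.

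The beta ring did not share the sign of the alpha ring. Of its 8 rows, 2 (25%) had a negative difference, against 56.4% of all rows. The median was 0.08, and no row reached an unadjusted p under 0.05 in limma. Its mean was 9.28 ± 0.32 in PJ34 embryos and 9.18 ± 0.32 in Control embryos, and the groups overlapped widely. The difference between the rings was not tested. Among the subunits with a cutting site, Psmb5 differed by 0.04 (interval from -0.25 to 0.33), Psmb7 by 0.10 (interval from -0.42 to 0.62) and Psmb6 by -0.64 (interval from -1.72 to 0.44).

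Psmb6 varied strongly within both groups. It ran between 6.95 and 10.12 in PJ34 embryos (median 8.79) and between 7.87 and 10.55 in Control embryos (median 9.50). Of the PJ34 embryos, 3 lay below the lowest Control embryo. Psmb3, a beta subunit with no cutting site of its own, ran the other way in its first row, with 6.47 ± 1.15 in PJ34 embryos and 5.85 ± 0.74 in Control embryos (0.62, interval from -0.37 to 1.61). The high values were 8.90 in MTM11-4, 7.50 in MTM14-2 and 7.47 in MTM13-1, and without MTM11-4 the difference was 0.35. The Control mean of this row lay below the lowest array median, 6.12.

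All 7 rows of the 6 base ATPases had a negative difference, against 56.4% of all rows, with a median of -0.25. At an unadjusted p under 0.05, 3 of them (42.9%) were lower, where 3.93% of all rows were. Differences between roles were not tested. The ring averaged 8.61 ± 0.33 in PJ34 embryos and 8.88 ± 0.15 in Control embryos (SD, n = 10 and 7). MTM11-1, at 8.12, and MTM13-2, at 8.16, were the lowest embryos and MTM11-3, at 9.23, the highest. Among Control embryos B-2 was low, at 8.56, with the other 6 between 8.87 and 8.99. Without the 2 rows of Psmc1 the means were 8.36 ± 0.25 in PJ34 embryos and 8.56 ± 0.26 in Control embryos, and 1 PJ34 embryo lay below the lowest Control embryo.

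The first row of the ATPase Psmc1 read 8.28, 9.25, 10.32 and 9.47 in the MTM11 embryos, 9.87, 7.70, 9.81 and 8.95 in the MTM13 embryos, and 9.23 and 9.14 in the MTM14 embryos. In Control embryos it read 9.91 in A-2, 9.85, 9.66 and 9.87 in the B embryos, and 10.16, 9.90 and 9.51 in the D embryos. Control embryos lay close together, 7 PJ34 embryos lay below all of them and MTM11-3 above. The means were 9.20 ± 0.77 in PJ34 embryos and 9.84 ± 0.20 in Control embryos, a difference of -0.64 with an interval from -1.24 to -0.03 (limma, unadjusted p = 0.0400, adjusted p = 0.843). It was -0.47 without MTM13-2. The second Psmc1 row, with a correlation of 0.77 to the first over the same 17 embryos, averaged 9.27 ± 0.75 in PJ34 embryos and 9.51 ± 0.39 in Control embryos (-0.25).

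Psmc3, an ATPase of the same ring, lay below the Control mean in all 10 PJ34 embryos. It ran between 7.39 and 7.90 in PJ34 embryos (median 7.59) and between 7.30 and 8.45 in Control embryos (median 7.86), so the PJ34 embryos filled the lower part of the Control range. The difference was -0.31 with an interval from -0.59 to -0.02 (limma, unadjusted p = 0.0361, adjusted p = 0.843). Psmc5 ran between 9.80 and 11.09 in PJ34 embryos (median 10.60) and between 10.45 and 11.27 in Control embryos (median 10.95). Its difference was -0.33 (limma, unadjusted p = 0.0472, adjusted p = 0.843), and 9 of 10 PJ34 embryos lay below the Control mean. The remaining ATPases differed by -0.03 (Psmc2), -0.10 (Psmc4) and -0.25 (Psmc6).

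**Figure D3:**
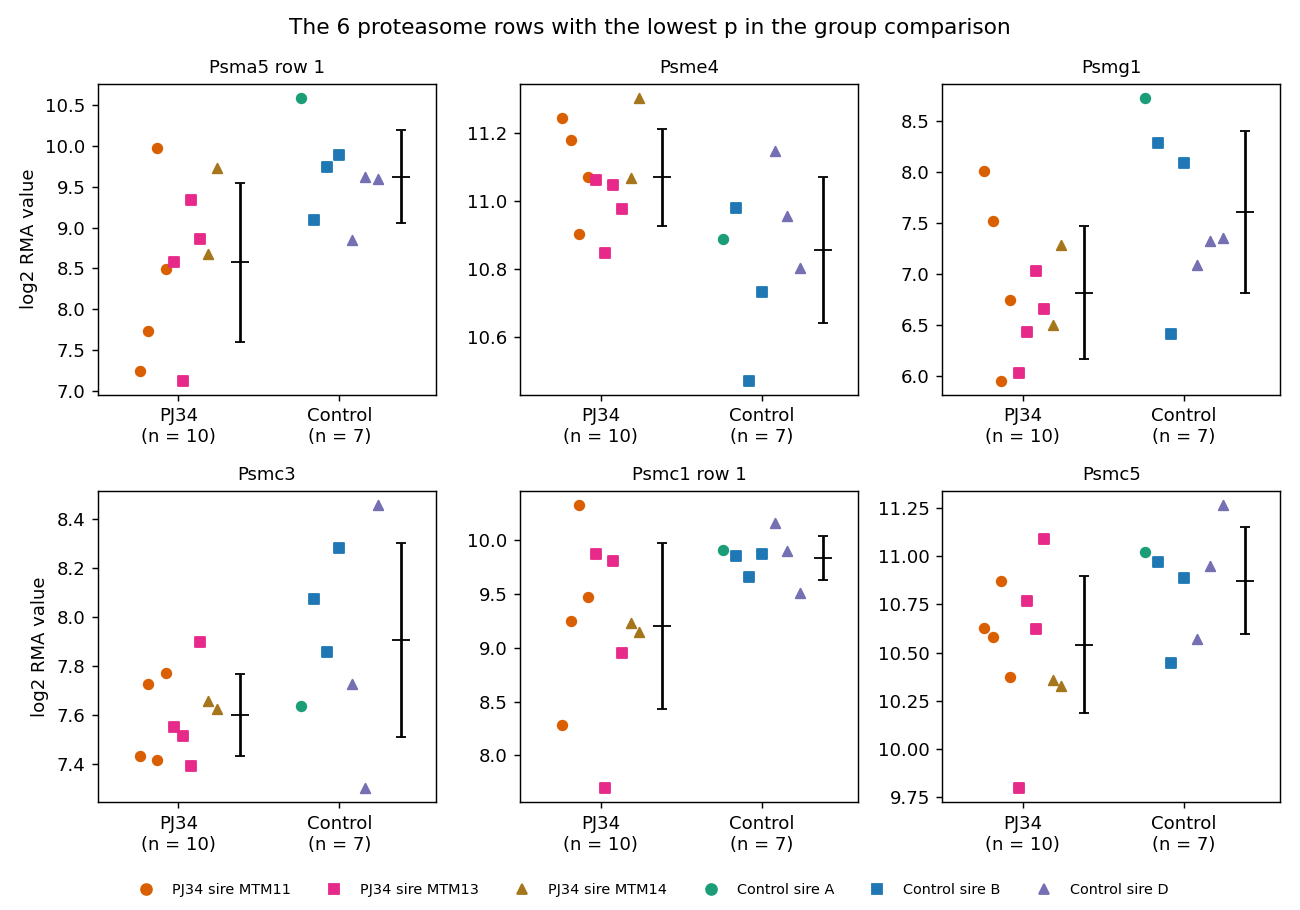
Log2 RMA values of the 6 proteasome rows with the lowest unadjusted p, 1 point per embryo, with PJ34 embryos left of Control embryos in each panel; colours and shapes mark sires and the black bars are the group mean ± SD. The groups overlap in every panel, with 6 PJ34 embryos below the lowest Control embryo in the first row of Psma5 and 7 in the first row of Psmc1.

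The scaffold and ubiquitin-receptor subunits of the base (Psmd1, Psmd2 and Psmd4) had 4 rows, all with a negative difference between -0.20 and -0.12. None reached an unadjusted p under 0.05. Psmd1, a large scaffold subunit, averaged 9.11 ± 0.46 in PJ34 embryos and 9.31 ± 0.23 in Control embryos. Base and lid together gave 16 negative differences in 19 rows (84.2%), against 56.4% of all rows. Together they averaged 8.90 ± 0.23 in PJ34 embryos and 9.09 ± 0.06 in Control embryos.

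In the lid, 5 of 8 rows (62.5%) had a negative difference, against 56.4% of all rows, with a median of -0.10. Psmd14, the subunit that cuts ubiquitin chains off the substrate, ran between 8.25 and 10.24 in PJ34 embryos (median 9.47) and between 9.45 and 10.53 in Control embryos (median 9.77). MTM11-4 and MTM11-1 were the lowest, and 4 PJ34 embryos lay below all Control embryos. The difference was -0.50 with an interval from -1.03 to 0.02 (limma, unadjusted p = 0.0594, adjusted p = 0.846). Psmd8, which had the largest positive difference of the lid (0.09), stood at -0.01 without MTM11-3.

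The 5 rows of activators and the inhibitor all had a positive difference, between 0.02 and 0.21, with a median of 0.14. Over all rows, 56.4% had a negative difference. Psme4 encodes a large nuclear activator known in spermatids for the breakdown of acetylated histones. It read 11.24, 11.18, 10.90 and 11.07 in the MTM11 embryos, 11.06, 10.85, 11.05 and 10.98 in the MTM13 embryos, and 11.07 and 11.30 in the MTM14 embryos. In Control embryos it read 10.89 in A-2, 10.98, 10.47 and 10.73 in the B embryos, and 11.15, 10.96 and 10.80 in the D embryos. MTM13-2 alone among PJ34 embryos lay below the Control mean, and 3 PJ34 embryos lay above the highest Control embryo. The means were 11.07 ± 0.14 in PJ34 embryos and 10.86 ± 0.21 in Control embryos, a difference of 0.21 with an interval from 0.03 to 0.40 (limma, unadjusted p = 0.0234, adjusted p = 0.843).

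Psme3, a nuclear activator, averaged 11.22 ± 0.14 in PJ34 embryos and 11.08 ± 0.23 in Control embryos (0.14, interval from -0.05 to 0.33). Psme1 and Psme2, which form the activator induced by interferon, differed by 0.02 (interval from -0.39 to 0.42) and 0.06 (interval from -0.44 to 0.56). In Psme1 a single embryo was high in each group, MTM11-3 at 8.51 and D-1 at 8.50, and all others lay between 7.07 and 7.58. The inhibitor Psmf1 differed by 0.15.

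The subunits found mainly in certain tissues differed little. Psmb8, Psmb9 and Psmb10 replace the cutting subunits in the immunoproteasome, Psmb11 does so in the thymus, and Psma8 belongs to the testis. Psmb8 averaged 5.32 ± 0.11 in PJ34 embryos and 5.25 ± 0.11 in Control embryos. Psmb9 averaged 7.57 ± 0.10 in PJ34 embryos and 7.67 ± 0.22 in Control embryos, and Psmb10 averaged 7.07 ± 0.12 in PJ34 embryos and 7.11 ± 0.28 in Control embryos. The intervals of the 5 rows reached from -0.28 to 0.24 at the outside. Psmb11 differed by 0.07 and Psma8 by -0.09. The group means of Psma8, Psmb8 and Psmb11 lay below the lowest array median, 6.12, so their narrow intervals do not show stable expression.

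Among the assembly chaperones, 4 of 7 rows (57.1%) had a negative difference, against 56.4% of all rows, and the median was close to 0. Psmg1, which with Psmg2 helps to build the alpha ring, read 8.01, 7.52, 5.95 and 6.75 in the MTM11 embryos, 6.03, 6.43, 7.03 and 6.66 in the MTM13 embryos, and 6.50 and 7.29 in the MTM14 embryos. In Control embryos it read 8.73 in A-2, 8.29, 6.41 and 8.09 in the B embryos, and 7.09, 7.32 and 7.35 in the D embryos. Of the PJ34 embryos, 9 lay below the Control mean and 2 below the lowest Control embryo, B-2. The difference was -0.79 with an interval from -1.50 to -0.09 (limma, unadjusted p = 0.0293, adjusted p = 0.843).

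Psmg2, the partner of Psmg1, averaged 5.0 ± 0.50 in PJ34 embryos and 4.85 ± 0.23 in Control embryos, and the difference of 0.15 was 0.02 without MTM14-1. Both means lay below the lowest array median, 6.12. Psmd9, a chaperone of the base, averaged 7.35 ± 0.41 in PJ34 embryos and 7.09 ± 0.14 in Control embryos (0.26, interval from -0.07 to 0.60), with 5 PJ34 embryos above the highest Control embryo. Psmg4 and Psmd10, singled out after their values were seen, were high in a few embryos of both groups. Psmg4 stood at 10.23 in MTM11-3, against 9.34 in D-3 and 9.09 in D-1, and between 5.76 and 6.29 in the other 14 embryos. Psmd10, a chaperone of the base, stood at 8.83 in MTM11-2, 6.79 in MTM13-1 and 6.63 in MTM14-2, against 8.77, 7.59 and 7.50 in the 3 embryos of Control sire B, and at 5.53 or lower in the rest. The 2 name-only rows differed by -0.34 (Psmc3ip) and -0.16 (Psme3ip1).

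The promoters of 42 of the 50 genes were read from RefSeq (GRCm38.p6), as 46 windows from 250 bases before to 50 after a start site. Each window was searched on both strands for TGACNNNGC, the core of the element bound by NRF-type factors that are known to drive proteasome genes, and for CCAAT, a common promoter box, and a match of one may share letters with a match of the other. TGACNNNGC was found in 6 of 46 member windows (13.0%) and in 12.4% of all 32850 windows, and CCAAT in 16 (34.8%) and in 37.4%. The core motif was in the windows of Psmb5, Psmb6, Psmc6, Psmd12, Psmd9 and Psme4. The windows printed here are those of the core and base genes with the largest differences at an unadjusted p under 0.05, Psma5 (chr3:108256676-108256975) and Psmc1 (chr12:100109952-100110251), and the 2 with the motif nearest the start, Psme4 (chr11:30771525-30771824) and Psmb6 (chr11:70525107-70525406). All 4 lie on the plus strand, and capitals mark TGACNNNGC on either strand.
Psma5: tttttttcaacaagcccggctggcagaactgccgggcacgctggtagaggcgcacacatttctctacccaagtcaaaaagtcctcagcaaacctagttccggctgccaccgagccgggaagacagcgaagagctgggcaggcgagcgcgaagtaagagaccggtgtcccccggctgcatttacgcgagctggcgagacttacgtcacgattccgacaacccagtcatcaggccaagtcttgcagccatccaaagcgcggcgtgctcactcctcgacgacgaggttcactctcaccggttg
Psmc1: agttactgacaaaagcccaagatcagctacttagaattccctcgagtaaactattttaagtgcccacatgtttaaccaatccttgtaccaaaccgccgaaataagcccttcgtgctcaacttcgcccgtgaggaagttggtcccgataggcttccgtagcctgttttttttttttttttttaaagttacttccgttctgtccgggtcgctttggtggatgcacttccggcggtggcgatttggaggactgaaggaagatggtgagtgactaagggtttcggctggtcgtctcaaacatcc
Psme4: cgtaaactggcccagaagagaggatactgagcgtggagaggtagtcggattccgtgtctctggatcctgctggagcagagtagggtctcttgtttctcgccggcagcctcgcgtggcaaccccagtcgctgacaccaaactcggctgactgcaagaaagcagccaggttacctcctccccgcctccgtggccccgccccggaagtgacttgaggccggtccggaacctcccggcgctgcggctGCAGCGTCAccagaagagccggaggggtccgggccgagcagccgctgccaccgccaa
Psmb6: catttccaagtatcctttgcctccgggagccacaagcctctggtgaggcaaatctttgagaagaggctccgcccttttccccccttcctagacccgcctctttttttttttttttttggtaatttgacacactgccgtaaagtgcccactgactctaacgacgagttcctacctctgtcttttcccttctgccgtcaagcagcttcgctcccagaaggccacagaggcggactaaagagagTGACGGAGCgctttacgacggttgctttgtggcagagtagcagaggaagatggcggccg
The windows of Psma5 and Psmc1 held no TGACNNNGC, and that of Psmc1 held 1 CCAAT. The array rows of these genes were not placed on the genome. The genes with TGACNNNGC in a window had log2 differences of 0.04 (Psmb5), -0.64 (Psmb6), -0.25 (Psmc6), -0.22 (Psmd12), 0.26 (Psmd9) and 0.21 (Psme4). Whether the motif goes with a difference was not tested. A match of letters shows no binding.

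Values within a group were more scattered among proteasome rows than in the table as a whole. The median SD of the 56 rows was 0.455 in PJ34 embryos and 0.357 in Control embryos, while over all rows it was 0.184 in PJ34 embryos and 0.180 in Control embryos. The rows were not matched on level. The SD was tested with limma on absolute deviations from the group mean. The spread was wider in PJ34 embryos in 39 of 56 rows (69.6%), against 51.7% of all rows. At an unadjusted p under 0.05, 4 rows (7.14%) were wider in PJ34 embryos, where 3.73% of all rows were, and 1 row was narrower, where 4.96% of all rows were. No member passed an adjusted p of 0.1, which 0.0275% of all rows did. The self-test on simulated rows recovered 181 of 200 rows with a 5-fold SD at an unadjusted p under 0.05 and 0 of 200 after adjustment. A count of 0 after adjustment therefore does not show that spreads were alike.

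The first row of Psma3 had an SD of 0.28 in PJ34 embryos and 0.09 in Control embryos (limma, unadjusted p = 0.0186), and its low embryos were MTM13-1 at 10.64, MTM13-3 at 10.89 and MTM13-4 at 11.03. Psma4 had an SD of 1.08 in PJ34 embryos and 0.36 in Control embryos (limma, unadjusted p = 0.0206). The lid subunit Psmd3 had an SD of 0.45 in PJ34 embryos and 0.13 in Control embryos (limma, unadjusted p = 0.0408). Psmc3 was the row with a narrower spread, with an SD of 0.17 in PJ34 embryos and 0.40 in Control embryos (limma, unadjusted p = 0.0194).

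Each PJ34 sire was also set against the Control embryos in 1 fit. The 3 comparisons share the Control embryos. No member row passed an adjusted p of 0.1 for MTM11, MTM13 or MTM14, where 0.00459%, 0% and 0.0551% of all rows passed. At an unadjusted p under 0.05, the MTM11 embryos had 3 rows lower and 2 higher, with 2.53% and 2.72% of all rows. The MTM13 embryos had 6 rows lower and 0 higher, with 2.9% and 2.06% of all rows, and the MTM14 embryos had 1 lower and 3 higher, with 3% and 2.53%. The 6 rows lower in MTM13 came from 3 genes: the 3 near-copy rows of Psma3, the 2 rows of Psma5 and the row of Psmg1. They are therefore not 6 separate results. The median member difference was -0.05, -0.06 and -0.09 for MTM11, MTM13 and MTM14.

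Psmd1 was low in the MTM11 family, with 8.54, 8.35, 8.76 and 9.0 in its embryos, against 9.12 to 9.75 in Control embryos (-0.65; limma, unadjusted p = 0.000725, adjusted p = 0.513). In the other families it stood between 9.20 and 9.93. The first row of Psma3 differed by -0.35 in the MTM13 family, by 0.07 in MTM11 and by 0.0042 in MTM14. Psmg2 was 0.96 higher in the 2 MTM14 embryos than in Control embryos (limma, unadjusted p = 0.000299, adjusted p = 0.235). It read 6.24 in MTM14-1 and 5.38 in MTM14-2, and its Control mean, 4.85, lay below the lowest array median, 6.12. In the F test between the 3 PJ34 sires, no member row passed an adjusted p of 0.1, where 0.0138% of all rows passed, and 6 rows (10.7%) had an unadjusted p under 0.05, where 4.91% of all rows did. They were the 3 rows of Psma3, which are nearly copies of each other, and those of Psmd1, Psmd12 and Psmg2.

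**Figure D4:**
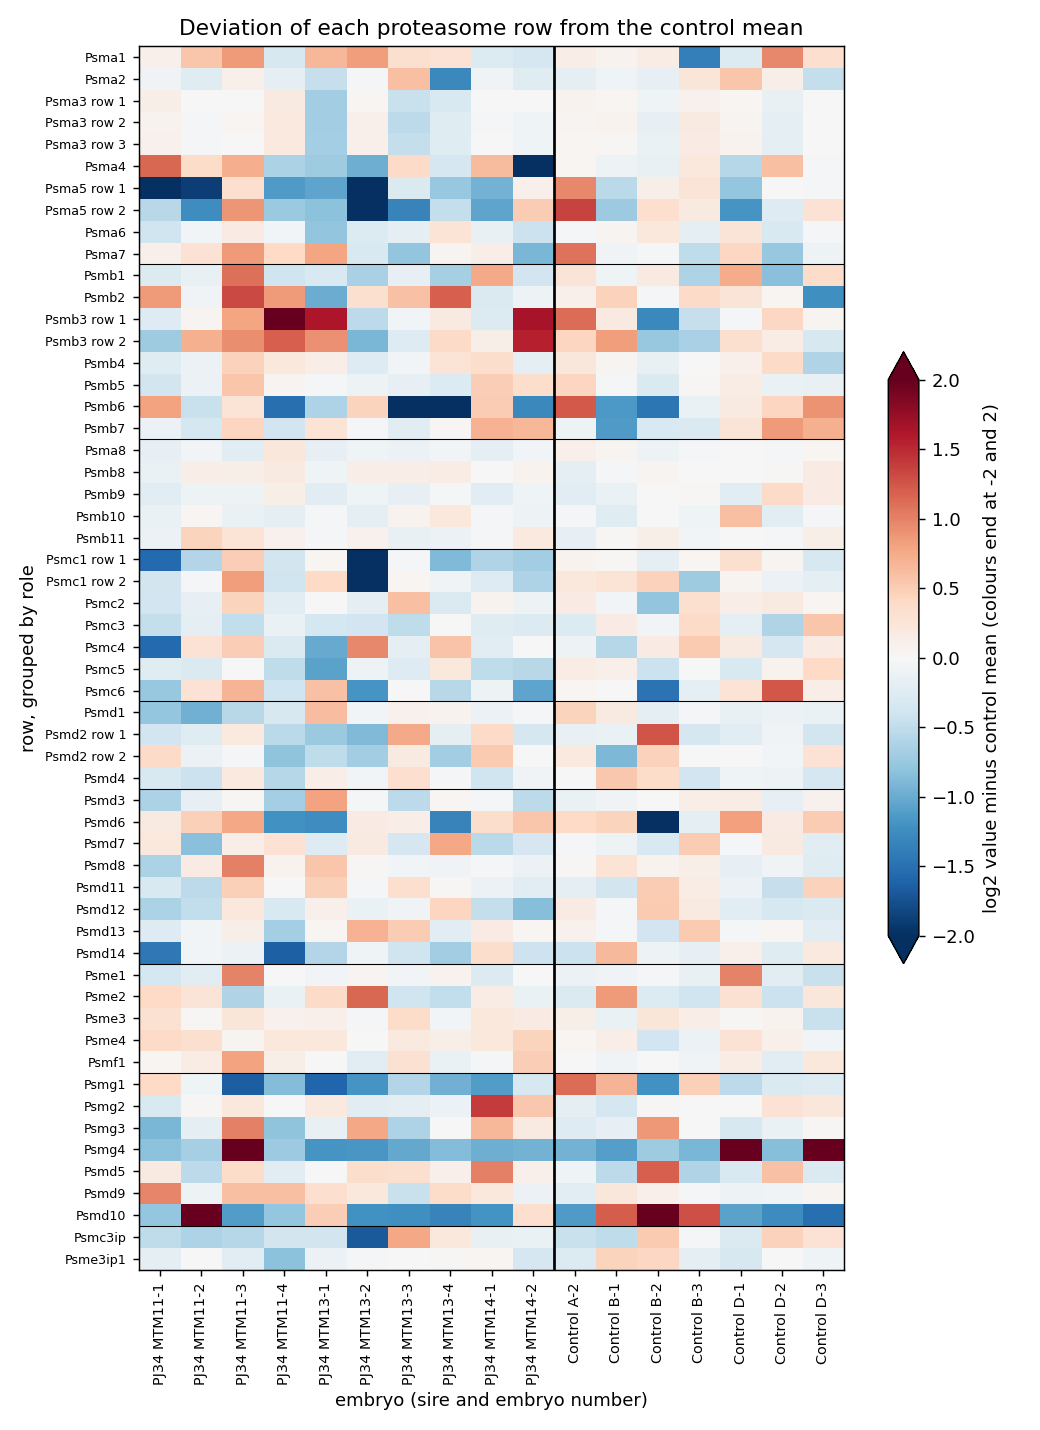
Log2 value of each of the 56 proteasome rows (down the page, grouped by role) in each of the 17 embryos (PJ34 left of the black line, Control right of it), as the difference from the Control mean; red is higher and blue is lower, and colours end at -2 and 2. MTM11-3 is red in most rows, and the extreme cells of other embryos fall in different rows.

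The study's own comparison was of single embryos with the Control embryos, so every embryo of a PJ34 sire was compared with the 7 Control embryos, and each Control embryo against the other 6. The residual spread was that of the Control embryos. Over the 10 PJ34 embryos, 7 of 560 comparisons of a member row (1.25%) passed an adjusted p of 0.1 in limma, and over the 7 Control embryos 5 of 392 did (1.28%). Over all rows the shares were 0.581% for PJ34 embryos and 0.397% for Control embryos. Called member rows appeared in 5 of 10 PJ34 embryos and in 3 of 7 Control embryos.

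MTM11-1 had 2 called rows (0.868% of all rows): the first of Psmc1, at 8.28 against a Control mean of 9.84 (adjusted p = 0.0197, limma), and Psmd9, at 8.06 against 7.09 (adjusted p = 0.0496, limma). MTM13-1 had 2 (0.918% of all rows), the first of Psma3 at 10.64 against 11.33 and Psmd3 at 8.59 against 7.79. MTM13-2 had 1 (0.491% of all rows), the first of Psmc1, at 7.70 against 9.84 (adjusted p = 0.00759, limma). MTM14-1 had 1 (0.62% of all rows), Psmg2, at 6.24 against 4.85, and MTM14-2 had 1 (0.34% of all rows), Psma4, at 7.71 against 10.23 (adjusted p = 0.0494, limma). The first row of Psmc1 was the only member row called in more than 1 PJ34 embryo.

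The remaining PJ34 embryos had no called member row: MTM11-2 (0.289% of all rows), MTM11-3 (0.537%), MTM11-4 (0.579%), MTM13-3 (0.551%) and MTM13-4 (0.615%). Of the Control embryos, B-2 had 3 (0.464% of all rows), with the first row of Psmd2 at 8.76 against 7.29 in the other 6, Psmd6 at 7.63 against 10.14 and Psmg3 at 7.78 against 6.77. D-1 had 1 (0.427% of all rows), Psme1, and D-3 had 1 (0.289% of all rows), Psmb2. There was none in A-2 (0.487%), B-1 (0.381%), B-3 (0.289%) and D-2 (0.445%).

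Proteins that work with the proteasome were represented by 23 of 26 listed genes in 24 rows, with a median difference of -0.07. The list also held the lid subunit Sem1 and the core chaperone Pomp, whose symbols fall outside the member rule, and the transcription factors Nfe2l1 and Nfe2l2. No row of the list passed an adjusted p of 0.1 (0% of all rows), and 2 were lower at an unadjusted p under 0.05 (3.93% of all rows). Usp14, a deubiquitinase that binds the base, averaged 7.93 ± 0.52 in PJ34 embryos and 8.72 ± 0.65 in Control embryos (-0.79; limma, unadjusted p = 0.00965, adjusted p = 0.814). Ufd1, which works with the unfolding ATPase Vcp, averaged 9.44 ± 0.92 in PJ34 embryos and 10.41 ± 0.39 in Control embryos (-0.97; limma, unadjusted p = 0.0137, adjusted p = 0.831). The shuttle factor Ubqln4 differed by -0.15. Ubiquitin and its activating and conjugating enzymes were represented by 9 of 14 genes in 13 rows, with a median of 0.05 and no row at an unadjusted p under 0.05. Of these, the rows with the lowest p were the ubiquitin-conjugating enzymes Ube2s (0.39) and Ube2d2a (-0.15) and the activating enzyme Uba6 (-0.45).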

How the data were processed

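Single 2-cell embryos were profiled, 1 Affymetrix Mouse Gene 1.0 ST array each, after amplification with the WT-Ovation One-Direct kit. The authors normalized the arrays with RMA in Partek and deposited log2 values per probe set. These values were used as deposited; the number of embryos limits the precision. Symbols came from the platform annotation: 21780 of 28815 rows had 1 symbol, 1605 several and 5430 none. The genome build of the probes is not given in the sources used here, so rows have no coordinates. PJ34 (n = 10) and Control (n = 7) embryos were compared with limma 3.58.1 (lmFit, eBayes) in R 4.3.3 over all rows with 1 symbol, with Benjamini-Hochberg adjustment and the threshold of 0.1 of the study's methods. The same tool compared sires, single embryos and absolute deviations (spread). The authors' own array calls were not used. As alternatives, the methods' analysis of variance, array weights, an intensity trend, the sire as a random block, sire means, median-centred arrays, a filter on dim rows, 1 row per gene, all rows with or without a symbol, and the omission of each embryo or sire were tried. The means without the rows of Psma5 or Psmc1 were added after seeing the data. With the sire as a random block the estimated correlation was -0.04. Scripts were tested on simulated data. Rows named were the 8 with the lowest p, the lowest p in each direction of each role, the tissue-restricted subunits, Psme1 to Psme4, the 4 lowest p for spread, up to 4 calls per sire and per embryo, and 3 rows from each partner list. Members and lists were chosen with earlier results of these data known.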

Additional observations from a re-analysis of the deposited data

Results flagged for a closer look

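A single embryo lay far from the others of its group in 12 of 78 sets of values examined (Dixon's test at 95%). Chance marks about 1 in 20 of separate sets. These sets share rows, as the alpha ring is part of the constitutive core and of all members, so the count cannot be read as an excess. MTM11-3 was high in the mean of all members, at 9.06 with the next PJ34 embryo at 8.71. It was also high in the alpha ring, at 10.55 with the next at 9.98, in the constitutive core, at 10.27 with the next at 9.77, and in Psme1, at 8.51 with the next at 7.58. MTM11-4 was high in Psma8, at 4.78 with the next at 4.51, and in Psmb9, at 7.79 with the next at 7.64. MTM13-1 was high in Psmd3, at 8.59 with the next at 7.83, and MTM14-1 was high in Psmg2, at 6.24 with the next at 5.38. Among Control embryos, A-2 was high in the alpha ring, at 10.51 with the next at 10.16, and B-2 was low in the base ATPases, at 8.56 with the next at 8.87. D-1 was high in Psmb10, at 7.72 with the next at 7.10, and in Psme1, at 8.50 with the next at 7.49.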

How the results depend on the processing

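The number of member rows lower in PJ34 embryos at an unadjusted p under 0.05, 5 as reported, was 3 with the methods' analysis of variance, 2 without sire B, 3 without sire D and 3 without sire MTM14, and ran from 1 to 5 when single embryos were left out (1 without B-1 or without B-3). Shares over all rows are not given for the alternatives in this section, so their counts show only how the reported counts moved. The 7 calls in single PJ34 embryos became 0 with the residual spread of all embryos, 2 with rows at or above the median row only, and 4 to 8 when a Control embryo was left out (4 without A-2 or without B-3). With single embryos left out, member rows called stayed at 0 for the group comparison, the spread, MTM11 and MTM13, and ran from 0 to 1 for MTM14 and between sires (1 without MTM14-2). The median member difference then ran from -0.12 to -0.05 and the difference of member means from -0.16 to -0.09. The count of rows higher at an unadjusted p under 0.05, 1 as reported, was 0 with sire means and without sire B, MTM11 or MTM14, 2 without sire D or MTM13, and 0 to 2 with single embryos left out. Over the 27 named rows, 807 of 828 checks kept the sign and side of the threshold and 21 changed sign. No row was called in the group comparison. Without sire B, Psma1 was -0.020 and Psme1 -0.041. Without sire D, Psmd8 was -0.031 and Psmb10 0.040. Without sire MTM11, Psmd1 was 0.10, Psmb11 -0.0051 and Psme1 -0.048. Without sire MTM13, Psme2 was -0.011 and the first row of Psma3 0.047, and without sire MTM14, Psmg2 was -0.048. With single embryos left out, the lowest and highest differences were -0.0094 and 0.17 for Psmd8, -0.093 and 0.18 for Psme1, -0.064 and 0.20 for Psme2, -0.34 and 0.065 for Psma4 and -0.086 and 0.054 for Psmb10. The causes were not tested. No paired analysis was possible because the groups share no sire and no replicate number.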
